A study of Mus musculus with 4 samples.

Results

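The bursal fibroblasts of the mouse Achilles tendon atlas are a small population of 40 cells among 1191, taken by the name that the authors' annotation gives each cell. They were compared with the 329 cells named tendon fibroblasts 1 (173 cells) and tendon fibroblasts 2 (156 cells), pooled. Every cell came from the Achilles tendon of male C57Bl/6 mice aged 6 weeks, with no treatment or engineered allele named, and was profiled by droplet-based 3-prime sequencing in which a unique molecular identifier (UMI) marks each captured transcript. The 4 libraries are numbered 1 to 4 by the labels, which do not say whether a library holds 1 mouse or several, so the p-values measure only the spread between libraries, which may be technical. Bursal cells numbered 30, 0, 5 and 5 in libraries 1 to 4, and the pooled tendon fibroblasts 127, 11, 161 and 30. Library 2 therefore entered no comparison, and 3 pairs of sums remained, with 318 tendon cells.

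A bursa is a fluid-filled sac, lined by fibroblasts much like those of a joint, that lets a tendon slide over bone. Lining fibroblasts of this kind are known for secreting lubricin, the glycoprotein product of Prg4, and hyaluronan, which together keep sliding surfaces slippery. Tendon fibroblasts build the load-bearing cord itself, from fibrils of type I collagen dressed with minor collagens and small proteoglycans. The comparison asked which of these programmes separate cells that sit side by side in one tissue sample.

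Bursal UMIs summed to 591367, 100363 and 140431 in libraries 1, 3 and 4, and tendon UMIs to 1409218, 1602086 and 388989. A bursal cell carried a median of 19394, 21432 and 30026 UMIs in these libraries, against 9647, 9287 and 9919.5 for a tendon cell, so the bursal cells were the deeper ones in every library. Libraries shared 0 cell barcodes. Levels below are UMIs of a gene scaled to a fixed total for the summed cells (CPM). They are always in the order library 1, library 3, library 4. Fold changes are edgeR log2 fold changes of bursal over tendon. The standard error (SE) beside a fold change is approximate: its absolute value divided by the square root of its quasi-likelihood F statistic. It therefore holds no information beyond the fold change and that test. Since the authors formed the populations from these same counts, a p-value says how steadily a gene differed across the 3 libraries and not whether the populations exist.

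Across 5834 genes with enough counts, 642 passed an adjusted p of 0.05 (11%), of which 220 were higher in bursal fibroblasts (3.77%) and 422 lower (7.23%). Of the 642, 637 differed in the same direction in all 3 libraries, and 53 had 0 UMIs in the bursal cells. The median log2 fold change over all genes tested was -0.02. Without library 1, which holds 30 of the 40 bursal cells, 294 of 3952 genes passed, 102 higher and 192 lower.

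The markers of the population are Prg4, Clic5 and Col22a1. The populations were formed from these same counts, so high levels of the 3 genes are no independent check of the label. Prg4 lies on mouse chromosome 1 (GRCm38, 150449412 to 150466165), Clic5 on chromosome 17 (44188584 to 44280172) and Col22a1 on chromosome 15 (71795795 to 72034227). A promoter sequence from RefSeq (GRCm38.p6) was at hand for Clic5 and for Tnmd and Chad, tendon genes that stood at the opposite end of the comparison. The 250 bases before each start site are shown 5′ to 3′ so that a gene high in the bursal cells can be set beside genes at or near 0 UMIs there. Capitals mark a match to a TATA box (TATAAA), a cAMP response element (TGACGTCA) or an AP-1 site (TGANTCA) on either strand.
Clic5: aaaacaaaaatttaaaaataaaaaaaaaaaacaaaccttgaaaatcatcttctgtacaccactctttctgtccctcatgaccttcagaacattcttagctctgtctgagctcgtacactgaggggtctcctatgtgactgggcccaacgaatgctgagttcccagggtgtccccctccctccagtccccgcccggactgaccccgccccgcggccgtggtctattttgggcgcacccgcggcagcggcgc
Tnmd: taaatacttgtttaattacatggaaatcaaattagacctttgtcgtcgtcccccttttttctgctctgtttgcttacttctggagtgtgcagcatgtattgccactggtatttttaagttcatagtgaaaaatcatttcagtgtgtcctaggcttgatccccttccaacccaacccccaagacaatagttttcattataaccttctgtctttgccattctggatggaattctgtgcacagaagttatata
Chad: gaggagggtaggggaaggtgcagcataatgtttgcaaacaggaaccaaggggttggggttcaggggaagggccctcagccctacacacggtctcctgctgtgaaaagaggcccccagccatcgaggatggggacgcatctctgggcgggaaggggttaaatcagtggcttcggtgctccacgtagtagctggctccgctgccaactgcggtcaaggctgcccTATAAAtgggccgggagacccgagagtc
These windows are chr17:44188322-44188571, chrX:133850758-133851007 and chr11:94564797-94565046, all on the plus strand. The Chad window held a TATA box from 28 to 23 bases before the start, a motif that 12.4% of 32851 promoter windows of this length hold. The other searched letters, present in 1.55% of windows for the cAMP response element and 6.75% for the AP-1 site, were in none of the 3 windows.

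Prg4 made up 16.6% of all bursal UMIs, more than any other gene. It stood at 192126, 101472 and 100270.0 CPM in bursal fibroblasts and 4857, 5003 and 5787 CPM in the tendon fibroblasts, a log2 fold change of 4.49 ± 0.61 (SE, adjusted p = 0.00057). Every bursal sum lay far above every tendon sum, while the bursal sums themselves were spread, with library 1 the highest. Of single cells, the lowest, median and highest bursal ones held 5570, 146241 and 297225 CPM, and 35 of 40 exceeded the highest tendon cell (52757 CPM). Prg4 was not absent from tendon fibroblasts, where the median cell held 3830 CPM and 121 of 329 cells reached the level of the lowest bursal cell.

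Clic5, a chloride intracellular channel family protein that links membranes to the actin cortex, stood at 3204, 3577 and 2770.0 CPM against 16.3, 14.4 and 33.4, a log2 fold change of 7.27 ± 0.49 (adjusted p = 7.6e-06). Col22a1, a collagen known from tissue junctions such as the muscle-tendon boundary, stood at 964, 1046 and 741 CPM against 4.97, 4.37 and 15.4, with 7.03 ± 0.51 (adjusted p = 1.1e-05). For both genes the bursal sums were close to each other and far above tendon. The folds rose to 8.06 for Clic5 and 7.80 for Col22a1 when 4 tendon cells of more than 3 times the median depth were left out, and the Col22a1 fold was 7.62 without library 4. Of the relatives of Clic5, Clic4 (233, 588 and 904 CPM against 356, 275 and 555) and Clic1 (149, 239 and 242 against 214, 180.4 and 221) overlapped between the groups, and Clic6 had 0 UMIs in both.

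After thinning every cell to 3000 UMIs, a UMI of Col22a1 was found in 33 of 37 bursal cells (89.2%, exact 95% interval 74.6 to 97.0) and in 3 of 288 tendon cells (1.04%, 0.215 to 3.01). For Clic5 the shares were 86.5% (71.2 to 95.5) and 2.78% (1.21 to 5.40), and for Prg4 they were 100% and 87.8%. Over full depth, all 3 markers occurred together in 36 of 40 bursal cells, 2 of 156 tendon fibroblasts 2, 0 of 173 tendon fibroblasts 1 and 1 of 92 immune cells. Clic5 alone was no bursal mark in this tissue: endothelial cells 1 held 523 CPM with a UMI in 81.6% of 190 cells, and endothelial cells 3 held 321 CPM. In nerve, immune and red blood cells, classes that should lack Prg4, its summed level was 19.1 to 64.9 CPM and a UMI was found in 6.90% to 32.6% of cells, whose median depth was 2591 to 10370 UMIs. Tendon fibroblasts 1 and 2 lay far above that background.

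**Figure D1:**
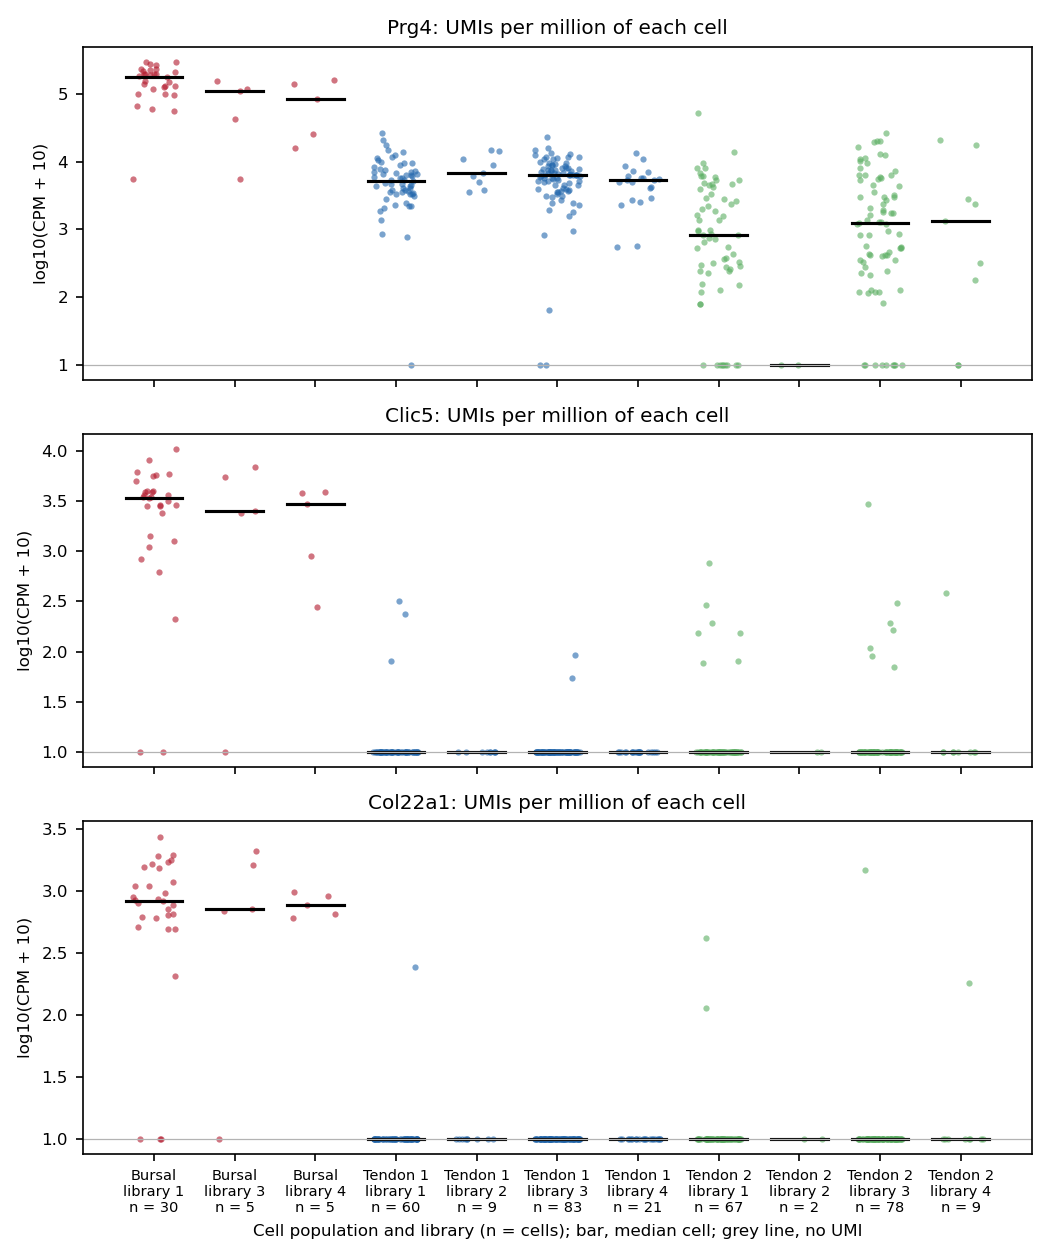
Level of Prg4, Clic5 and Col22a1 in each cell as log10 of CPM plus 10, by population and library; each point is a cell and the black bar its group's median. Bursal cells sit highest for all 3 genes, Prg4 is also present in most tendon cells, and Clic5 and Col22a1 lie at 0 UMIs (grey line) in nearly all of them.

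The 40 cells were not uniform for these markers. Col22a1 had no UMI in 4 bursal cells, 3 of library 1 and 1 of library 3, and 3 of these 4 also lacked Clic5 and Tspan15. The remaining cell was shallow (2344 UMIs) and carried Clic5 with 231 UMIs of Prg4. The 3 cells without either marker held 18, 924 and 637 UMIs of Prg4, which is 5580, 60590 and 43568 CPM, and their Col1a1 levels were 26968, 10426 and 23186 CPM, against a bursal median of 3246 CPM. These cells were chosen after their values were seen. Without the 4 cells, 674 of 5843 genes passed (232 higher and 442 lower), and the folds widened from -4.26 to -5.66 for Col1a1, from -3.81 to -4.64 for Col1a2, from -3.14 to -3.88 for Col3a1 and from -2.90 to -3.51 for Dcn.

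Among genes that passed, differed in the same direction in all 3 libraries and reached a mean of 100 CPM on the higher side, the 15 largest rises combined secreted enzymes, surface proteins and matrix proteins. Beside Clic5 and Col22a1 they were Bglap2, Pla1a, Tmem196, Chst2, Rab37, Cyp1b1, Tspan15, Calcrl, F13a1, Fgl2, Sema5a, Matn4 and Enpp2, and in each every bursal sum lay above every tendon sum. Rgs5, with a fold of 5.16, was left out of these 15 because it had 0 bursal UMIs in library 1, below tendon. Tspan15, a tetraspanin that partners the sheddase Adam10, had similar bursal sums, at 827, 1026 and 890.1 CPM against 10.6, 11.9 and 61.7 (log2 fold change 5.43 ± 0.55, adjusted p = 6.8e-05), with a fold of 6.25 without library 4. Adam10 itself passed with a smaller difference, at 120.1, 129.5 and 185 CPM against 66, 31.2 and 69.4 (1.30 ± 0.30, adjusted p = 0.017), and lost its call when any one of the 3 libraries was left out.

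Cyp1b1, a cytochrome P450 that oxidises steroids and retinoids, stood at 942, 229 and 591 CPM against 26.3, 3.12 and 10.3 (5.53 ± 0.37, adjusted p = 7.6e-06) and had 0 UMIs in tendon fibroblasts 1. Matn4, a matrilin that bridges matrix filaments, stood at 899.6, 289 and 335 CPM against 23.4, 6.87 and 20.6 (4.91 ± 0.40, adjusted p = 1.9e-05). Chst2, a sulfotransferase that decorates carbohydrate chains, stood at 688, 159 and 534 CPM against 7.81, 6.87 and 2.57 (5.87 ± 0.52, adjusted p = 2.7e-05). In these 3 genes library 3 had the lowest bursal level, and the fold of Chst2 was 5.17 without library 1 and 6.75 without library 3. Calcrl, the receptor for calcitonin gene-related peptide and adrenomedullin, followed at 286, 169 and 42.7 CPM against 7.81, 3.12 and 0, and Fgl2, a fibrinogen-like protein with prothrombinase activity, at 1835, 588 and 862 against 34.8, 46.8 and 7.71, with a fold of 5.08 that was 4.35 without library 1 and 6.09 without library 3.

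Bglap2, which encodes an osteocalcin, read 905, 49.8 and 313 CPM against 2.84, 0 and 7.71 (7.37 ± 0.64, adjusted p = 2.5e-05). It lies at 88377736 to 88378699 on chromosome 3, beside its near-identical copy Bglap (88383501 to 88384464), and how reads were split between the copies is uncertain. Its fold was 5.61 without library 1 and 8.36 without library 4. Tmem196, a membrane protein, read 335, 129.5 and 221 CPM against 0, 3.12 and 5.14, with a fold of 6.53 that ran from 5.05 without library 1 to 7.76 without library 3. Leaving out the 4 tendon cells of very high depth raised the folds of Bglap2 to 8.39, Rab37 to 7.82, F13a1 to 7.32 and Tspan15 to 6.41.

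**Figure D2:**
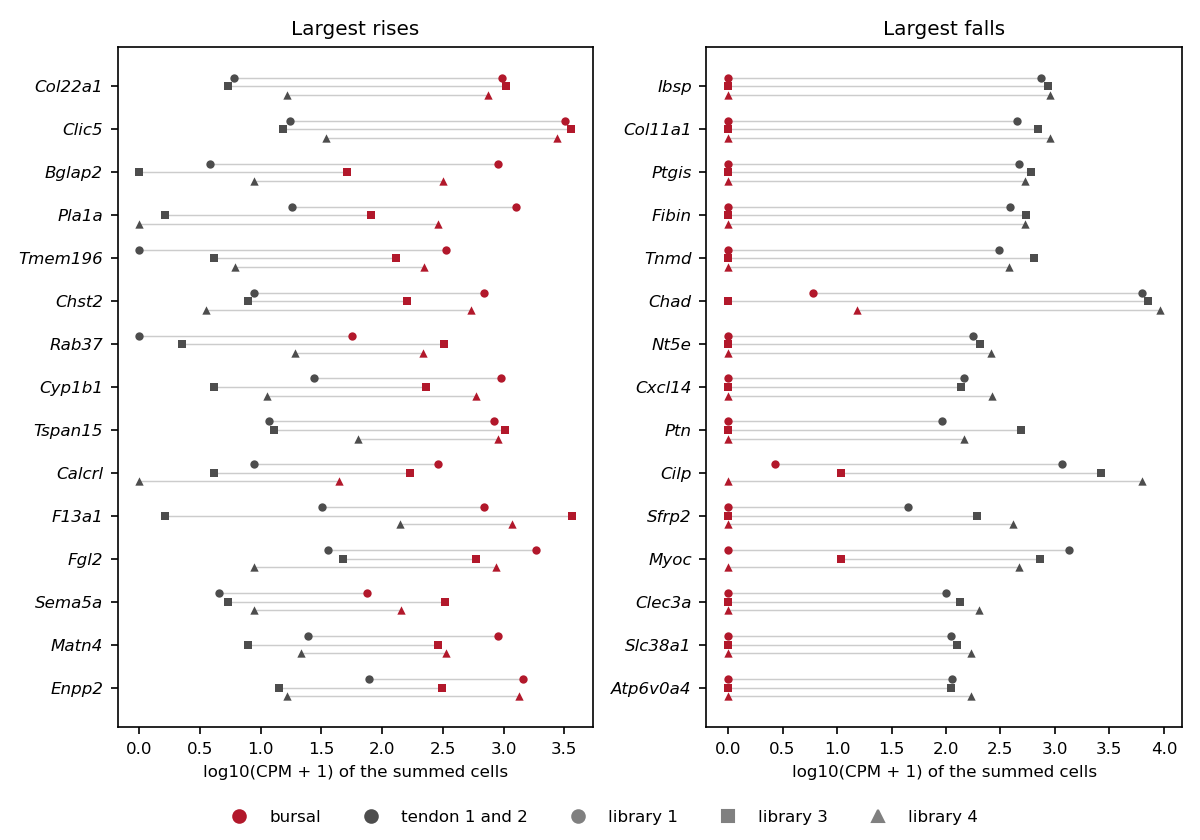
Levels of the 15 genes that rose most and the 15 that fell most among those called, changed the same way in all 3 libraries and at a mean of 100 CPM or more on the higher side, as log10 of CPM plus 1 of the summed cells; red marks bursal sums, grey the pooled tendon sums, and the symbol gives the library. In every gene all 3 red marks lie on one side of all 3 grey marks, and among the falls most red marks stand at 0.

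The list of synovial and bursal lining fibroblast genes had the highest share of rises among lists of 10 or more tested genes. Of 18 genes, 15 were tested, 11 were higher, none lower, and their median log2 fold change was 2.85. Beside the markers, Rab37, Tspan15 and F13a1 these were Itga6, Hbegf, Has1, Cd55 and Htra4. The list was drawn up with Prg4, Clic5 and Col22a1 in it and with earlier results of these data known. Its count is therefore not independent of these data. Itga6, a laminin-binding integrin chain, stood at 333, 927 and 669 CPM against 13.5, 13.1 and 51.4 (4.74 ± 0.45, adjusted p = 4.7e-05; 4.15 without library 3), and Cd55, a surface protein that dissolves complement convertases, at 883, 897 and 1374 against 316, 74.9 and 185 (2.55 ± 0.38, adjusted p = 0.0012). Hbegf, a ligand of the epidermal growth factor receptor, stood at 1008, 3936 and 3112 CPM against 216, 239.7 and 522 (2.85 ± 0.39, adjusted p = 0.00065).

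Htra4, a secreted serine protease, stood at 1185, 4902 and 2264 CPM against 216, 395 and 820.1 (2.44 ± 0.43, adjusted p = 0.0033), with no call without library 1. The tendon level of Htra4 came mainly from tendon fibroblasts 1, which read 449, 789.9 and 1118 CPM against 28.2, 54.6 and 185 in tendon fibroblasts 2. F13a1, a coagulation factor subunit that crosslinks fibrin and matrix, was uneven at 687, 3627 and 1168 CPM against 31.2, 0.624 and 139, with a fold of 5.31 ± 1.15 (adjusted p = 0.011). Its fold was 3.75 without library 3 and 7.06 without library 4, and its call was lost without library 1 (adjusted p = 0.13) and against tendon fibroblasts 2 alone. Immune cells of this tissue also held F13a1, at 1539 CPM with a UMI in 75% of cells, against 1122 CPM over all bursal cells. Rab37, a small GTPase of secretory vesicles, stood at 55.8, 319 and 214 CPM against 0, 1.25 and 18, a fold of 5.67 that was 4.50 without library 3 and 7.73 without library 4.

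Of 13 hyaluronan genes tested 5 were higher, 3 lower and 5 not called. The 5 higher genes encode enzymes that make the sugar precursors or the polymer: Gnpnat1 (331, 389 and 612 CPM against 50.4, 23.1 and 25.7, log2 fold change 3.60 ± 0.36), Gfpt2 (834, 707 and 1972 against 139.8, 46.2 and 175, 3.23 ± 0.34), the synthase Has1 (309, 508 and 705 against 85.9, 30 and 111, 2.74 ± 0.38), Ugp2 and Ugdh. The 3 lower genes encode proteoglycans and a link protein that bind the polymer. Vcan stood at 37.2, 19.9 and 57 CPM against 1582, 899 and 1157 (-5.08 ± 0.40), Acan had 1 bursal UMI in all (ratio 149.5-fold lower, exact 95% interval 26.7 to 5916) and Hapln1 also 1 (89.3-fold lower, 15.9 to 3538). The call of Ugp2 (406, 957 and 1453 CPM against 419, 121 and 188, groups overlapping) was lost without library 3 or library 4 and against tendon fibroblasts 2 alone.

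Tendon genes were lower nearly throughout. Of 25 listed, 24 were tested, and 20 were lower in bursal fibroblasts, with none higher and a median log2 fold change of -7.47 (-6.83 with genes at 0 bursal UMIs held at their bound). Their summed level was 18403, 11179 and 6473 CPM in bursal fibroblasts and 110573, 173386 and 163323 CPM in tendon. The tendon membrane protein Tnmd, which restrains vessel growth and marks mature tenocytes, had 0 bursal UMIs in all 3 libraries against 304, 645 and 380.5 CPM, at least 131-fold lower by a floor of 3 counts over the group. The transcription factors Scx and Mkx, which direct tendon development, had 2 and 1 bursal UMIs against 137 and 187, which is 16.8-fold (exact 95% interval 4.55 to 139.8) and 45.8-fold (8.11 to 1817) lower by CPM. The call of Mkx was lost without library 1 (adjusted p = 0.052).

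The largest falls reached levels near 0. Ibsp, a mineral-binding sialoprotein, had 0 bursal UMIs against 750.1, 857 and 897 CPM and Col11a1, a fibril-nucleating collagen, 0 against 451, 695 and 905 CPM, at least 227-fold and 171-fold lower. Ptgis, the prostacyclin synthase, and Fibin, a secreted growth regulator, followed with at least 149-fold and 132-fold. Chad, chondroadherin, a cell-binding leucine-rich protein, held 5 UMIs against 6269, 7115 and 9280.5 CPM in tendon (-10.13 ± 0.62, adjusted p = 7.6e-06). Nt5e, Cxcl14, Ptn, Sfrp2, Clec3a, Slc38a1 and Atp6v0a4 also had 0 bursal UMIs, with bounds from 32.6-fold to 78.6-fold, while Cilp and Myoc had 2 and 1 UMIs.

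The tendon side of these falls came from different tendon populations. Ibsp stood at 1679, 1843 and 1318 CPM in tendon fibroblasts 1 and 2.56, 6.97 and 0 in tendon fibroblasts 2, and Chad at 13712, 14535 and 13551 against 279, 716 and 169. Ptn stood at 27.1, 16.2 and 3.78 CPM in tendon fibroblasts 1 and 141, 893 and 443 in tendon fibroblasts 2, the reverse order, and Sfrp2 at 1.59, 10.8 and 3.78 against 78.1, 344 and 1281. Tnmd stood at 364, 255 and 215 CPM in tendon fibroblasts 1 and 256, 982 and 733 in tendon fibroblasts 2, so bursal cells, at 0, lay below both.

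The main collagens of the tendon cord were lower. Of 8 fibril-forming collagen genes tested, 6 were lower and 1 was higher. Col1a1 stood at 4679, 3577 and 762 CPM against 34040.2, 53529.6 and 43988 (log2 fold change -4.26 ± 0.68, adjusted p = 0.0018) and Col1a2 at 3793, 2601 and 1004 against 21975, 35874 and 28741 (-3.81 ± 0.59, adjusted p = 0.0015). Both genes of type I collagen had their lowest bursal sum in library 4. Their folds were -5.11 for Col1a1 and -4.56 for Col1a2 without library 1, with Col1a1 at -3.47 without library 4. Col3a1, the fibril collagen of loose tissue, stood at 2487, 2799.8 and 406 CPM against 12225, 15367 and 9841 (-3.14 ± 0.55, adjusted p = 0.003), and against tendon fibroblasts 1 alone (4203, 3966 and 5675 CPM) its adjusted p was 0.0501. The fold of Col3a1 against the pool was -3.73 without library 1 and -2.46 without library 4. In library 3, 1 of 5 bursal cells held 23186 CPM of Col1a1 and 14773 CPM of Col3a1. The median bursal cell of that library held 318 and 560 CPM. The library 3 sums of these genes, and so the order of the libraries, rest largely on that cell.

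Type V collagen starts fibrils and sets their width, and its chains split. Col5a1 (319.6, 169 and 78.3 CPM against 1114, 1316 and 1116, -2.83 ± 0.45) and Col5a2 (423, 448 and 221 against 1964, 2045 and 2069, -2.60 ± 0.37) fell, with Col5a1 at -3.62 without library 1. Col5a3 rose, at 281, 99.6 and 99.7 CPM against 66.7, 44.3 and 23.1 (1.77 ± 0.35, adjusted p = 0.006), but its call was lost without library 1, against tendon fibroblasts 2 alone and with tendon fibroblasts 3 added to the pool. Col27a1 was not called against the pool, with 37.2, 9.96 and 0 CPM against 66.7, 45.6 and 59.1, but was called against tendon fibroblasts 1 alone, with no filter on low counts and without the cell rich in hemoglobin. Col2a1, Col11a2 and Col24a1 were too scarce to be tested, with 0, 2 and 0 bursal UMIs.

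Among collagens that decorate fibrils, Col12a1 stood at 6.76, 9.96 and 7.12 CPM against 155, 159 and 121 (-4.29 ± 0.43, adjusted p = 6.8e-05) and Col16a1 at 67.6, 49.8 and 42.7 against 163, 195 and 162 (-1.64 ± 0.33, adjusted p = 0.0076), both lower, beside the rise of Col22a1, and the call of Col16a1 was lost after thinning cells to equal depth. Col14a1 overlapped between the groups at 115, 129.5 and 21.4 and 217, 128 and 129 CPM. Among network collagens, the chains of type IV, the sheet of basement membranes, were higher: Col4a1 at 1062, 468 and 519.8 CPM against 253, 163 and 177 (1.65 ± 0.32, adjusted p = 0.0058) and Col4a2 at 859, 369 and 463 against 219, 156 and 216 (1.38 ± 0.34, adjusted p = 0.021). Both had no call against tendon fibroblasts 2 alone, and Col4a2 none without library 1. Type VI, a beaded filament around cells, was lower in all 3 chains, with folds of -2.07 for Col6a1, -1.84 for Col6a2 and -2.53 for Col6a3 (-3.17 without library 1). Col15a1 had 1 bursal UMI (453-fold lower, exact 95% interval 81.3 to 17921).

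Of 7 laminin, nidogen and perlecan genes tested none was higher and 1 was lower, too few to set apart from the 3.77% and 7.23% over all genes. The gene that was lower was Lama2 (8.45, 9.96 and 0 CPM against 101, 46.2 and 23.1, -3.35 ± 0.55). Lamb2 (460.0, 498 and 399 CPM against 405, 410.1 and 321), Nid1 (264, 209 and 78.3 against 233, 139 and 103) and Hspg2 (206, 409 and 164 against 368, 372 and 314) overlapped between the groups.

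Enzymes that fold and crosslink collagen were lower in 9 of 28 tested and higher in none, with a median of -0.57. The crosslinking oxidase Lox stood at 35.5, 19.9 and 14.2 CPM against 739, 1290.2 and 1694 (-5.38 ± 0.52, adjusted p = 5.2e-05; -6.72 without library 1), and Loxl4 and the prolyl hydroxylase P3h2 had 0 bursal UMIs, at least 12-fold and 12.8-fold lower. P3h2 had no call without library 1. Sparc, a collagen chaperone and matricellular protein, stood at 5716, 4862 and 3888 CPM against 18652, 23784 and 25258 (-2.32 ± 0.45, adjusted p = 0.0057), with no call without library 3 or library 4. Of 35 genes of the general secretory machinery tested, 1 was lower and none higher, beside 7.23% and 3.77% over all genes. The lower gene was Creb3l1, a transcription factor of secretory load (20.3, 49.8 and 28.5 CPM against 126, 164 and 139, -2.32 ± 0.34). Hspa5 (725, 498 and 655 CPM against 785, 722 and 859), the main chaperone of the endoplasmic reticulum, overlapped.

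Small leucine-rich proteoglycans, which space collagen fibrils, were lower in 9 of 12 tested, with a median of -4.29. Fmod had 6 bursal UMIs against 1764, 5306 and 4211 CPM in tendon (-8.57 ± 0.53, adjusted p = 7.6e-06; -9.34 without library 1), Kera 0 and Omd 1. Dcn, decorin, stood at 7909, 2521 and 3026 CPM against 20159, 32897 and 29803 (-2.90 ± 0.60, adjusted p = 0.0088), and its call was lost without library 3 or library 4 and against tendon fibroblasts 2 alone. Without library 1 the fold of Dcn was -3.75.

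Adhesive glycoproteins held 3 rises among the matrix genes. Fn1, fibronectin, a cell-binding scaffold on which other fibres assemble, stood at 37234, 22598 and 37727 CPM against 6009, 2290.1 and 7075 (2.70 ± 0.44, adjusted p = 0.0021), with no call without library 3. Sparcl1, a relative of Sparc, rose to 1442, 1604 and 1844 CPM against 122, 150.4 and 123 (3.54 ± 0.34, adjusted p = 4.7e-05). Ctgf, a matricellular growth factor partner, stood at 4118, 4095 and 5262 CPM against 988, 1595 and 2242 (1.46 ± 0.37, adjusted p = 0.027), and its call was lost without any one of the 3 libraries. In the same list of 20 tested genes 10 were lower, among them Comp, the cartilage oligomeric matrix protein (8.45, 39.9 and 7.12 CPM against 5588, 7544 and 12378, -9.10 ± 0.62, and -9.75 without library 3), and Postn, periostin, with 0 bursal UMIs (at least 25.1-fold lower).

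Cartilage and mineral genes were lower in 11 of 15 tested. Spp1, osteopontin, had 7 bursal UMIs against 3859.6, 2587 and 4707 CPM in tendon (-8.76 ± 0.57, adjusted p = 7.6e-06), nearly all of it from tendon fibroblasts 1 (8649, 5563 and 6913 CPM). Cytl1, a cytokine-like cartilage protein, had 1 bursal UMI. The 3 genes that rose were Bglap2, Matn4 and Sox5, the last a transcription factor of cartilage (205, 478 and 392 CPM against 28.4, 35 and 113, 2.73 ± 0.37, adjusted p = 0.00062). Its usual partners Sox9 (-3.40) and Sox6 (-2.41) were lower.

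Elastic fibre genes divided evenly, with 4 of 16 higher and 4 lower. Fbln5, which guides elastin onto fibres, stood at 289, 189 and 349 CPM against 56.1, 30 and 36 (2.65 ± 0.30, adjusted p = 0.00014) and Fbln7 at 563, 209 and 328 against 132, 94.3 and 59.1 (1.85 ± 0.35, adjusted p = 0.0048). Fbln2 (50.7, 19.9 and 35.6 CPM against 758, 579 and 419, -4.00 ± 0.38), Fbln1 (16.9, 0 and 0 CPM, -4.11) and the microfibril gene Mfap5 (-4.82) were lower. Fbln7 and Emilin2 (233, 209 and 149.5 CPM against 116, 19.3 and 38.6) had no call against tendon fibroblasts 2 alone, and Fbln7 none without library 1. Efemp1 is listed at 0 in all cells of library 3, its groups overlapped, and its call was lost without the library block and under DESeq2.

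**Figure D3:**
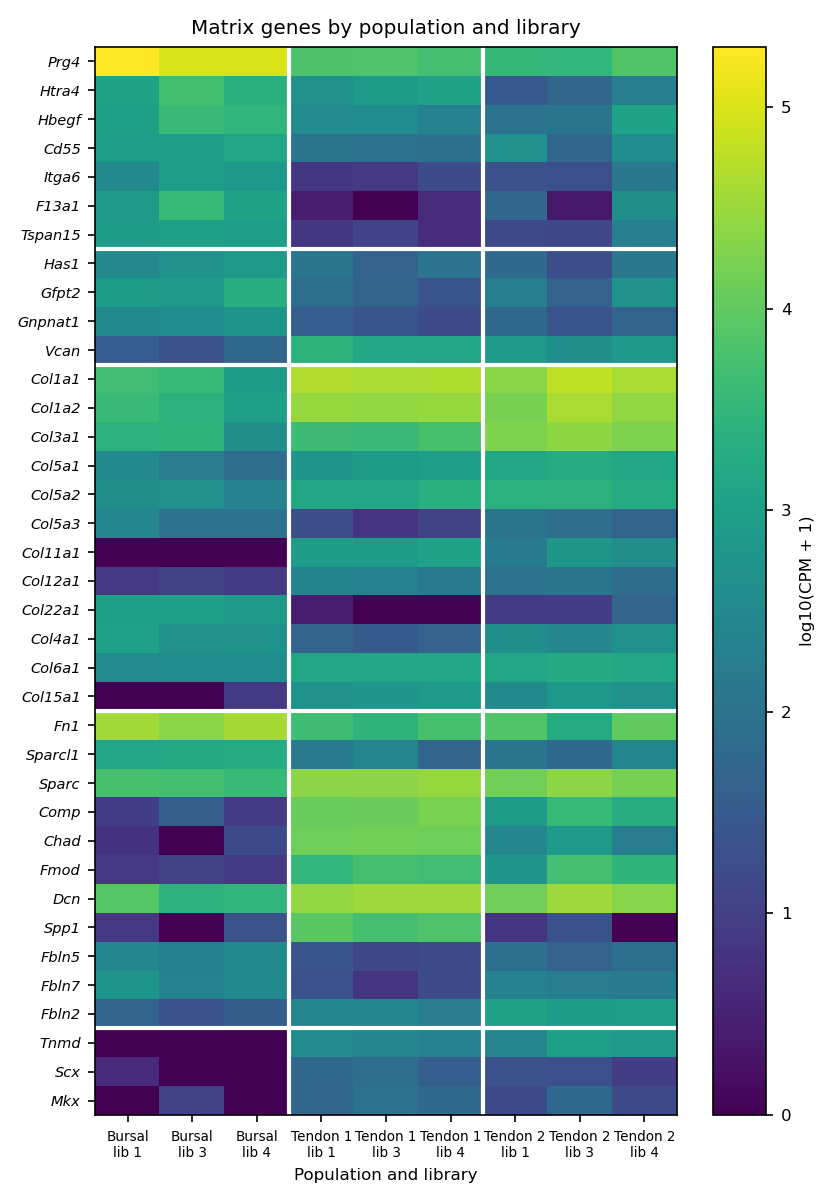
Levels of lining, hyaluronan, collagen, other matrix and tendon genes as log10 of CPM plus 1, in the summed bursal cells, tendon fibroblasts 1 and tendon fibroblasts 2 of libraries 1, 3 and 4. The bursal columns are bright for Prg4 and Fn1 and dark for Col11a1, Comp, Chad, Fmod and Tnmd, and Chad and Spp1 also part the tendon populations.

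Matrix proteases changed in both directions. Of 15 proteases tested 4 were higher and 3 lower, beside 3.77% and 7.23% over all genes. All 4 rises, Htra4, Ctsk, Adam10 and Mmp14, lost their calls without library 1. Ctsk, cathepsin K, a collagen-cleaving lysosomal protease, stood at 1735, 618 and 1111 CPM against 316, 269 and 193 (2.0 ± 0.39, adjusted p = 0.0056) and Mmp14, a membrane-bound collagenase, at 494, 379 and 506 against 302, 157 and 108 (1.28 ± 0.33, adjusted p = 0.027). Neither was called against tendon fibroblasts 2 alone or without library 1, and Mmp14 also not without library 4, without the library block or after thinning. Adamts5, an aggrecan-cleaving protease, did not pass at 1209, 1006 and 541 CPM against 441, 366 and 460.2 (adjusted p = 0.13). Protease inhibitors were lower in 8 of 14, with the 1 rise in Itih5, a heavy chain that attaches to hyaluronan (896, 1853 and 926 CPM against 279, 213 and 247, 2.15 ± 0.34, adjusted p = 0.0018). Serpinf1 stood at 40.6, 119.6 and 49.8 CPM against 1934, 3070.4 and 1352 (-5.12 ± 0.39, adjusted p = 1.5e-05), and Cst3, cystatin C, at 1269.9, 2192 and 1346 against 10549, 9070.0 and 10795 (-2.79 ± 0.40), with no call against tendon fibroblasts 2 alone.

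Lysosomal genes had 4 rises and 1 fall among 32 tested, beside 3.77% and 7.23% over all genes. The rises included Hexa, a subunit of beta-hexosaminidase (367, 219 and 285 CPM against 99.3, 58 and 66.8, 1.89 ± 0.28, adjusted p = 0.0011), Gusb and Man2b1, enzymes that degrade sugar chains. Gusb and Man2b1 lost their calls without library 1, and Man2b1 also under DESeq2, without the library block, without library 4, against tendon fibroblasts 2 alone and without the bursal cells that lack Col22a1. Ctsb (2327, 717 and 1396 CPM against 603, 539 and 468, adjusted p = 0.077) and Psap (1493, 837 and 911 against 490.3, 445 and 468, adjusted p = 0.066) did not pass, though their groups did not overlap, a state found in 12.7% of all genes for bursal above tendon and in 14.7% for bursal below.

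Lipid-mediator enzymes changed in opposite ways. Enpp2, autotaxin, which releases lysophosphatidic acid, stood at 1447, 309 and 1346 CPM against 77.3, 13.1 and 15.4 (4.83 ± 0.44, adjusted p = 3.4e-05), and Pla1a, a phosphatidylserine phospholipase, at 1258, 79.7 and 285 against 17, 0.624 and 0 (6.56 ± 0.49, adjusted p = 1.3e-05; 7.17 without library 1). Ptgis and Alox12 had 0 bursal UMIs. Of the retinoid and steroid genes, Aldh1a3, which makes retinoic acid, rose beside Cyp1b1 (193, 777 and 221 CPM against 12.1, 8.74 and 87.4, 3.83 ± 0.74, adjusted p = 0.0056), with no call without library 1 or against tendon fibroblasts 2 alone. Its fold was 2.65 without library 3 and 5.12 without library 4.

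Changes among signalling genes were mostly falls, as they were over all genes tested (7.23% lower and 3.77% higher). In the TGF-beta and BMP list 11 of 33 were lower and none higher: Bambi and Chrdl1 had 0 bursal UMIs and the BMP target Id1 had 1 against 325. In the Wnt list 10 of 17 were lower and none higher, with Sfrp2 and the receptor Fzd9 at 0 bursal UMIs and the inhibitor Dkk3 at 6.76, 0 and 0 CPM against 124, 241 and 193 (-5.02 ± 0.57), all of its bursal UMIs being in library 1. The insulin-like growth factor list had 3 falls of 8: Igf1 (69.3, 39.9 and 7.12 CPM against 718, 1191 and 517, -4.28 ± 0.49, and -5.54 without library 1), Igfbp7 (-3.87) and Igfbp6 (-3.64). Igf1 was high in tendon fibroblasts 2 (1239.8, 2039 and 1353 CPM) and was not called against tendon fibroblasts 1 (70, 208 and 125 CPM, adjusted p = 0.089).

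The epidermal growth factor system had rises. The ligand Hbegf, its receptor Egfr (396, 399 and 235 CPM against 128, 133 and 97.7, 1.43 ± 0.29, adjusted p = 0.0072) and the feedback inhibitor Errfi1 (247, 1265 and 1047 against 136, 119.8 and 201, 2.13 ± 0.41, adjusted p = 0.0056) were higher. Errfi1 and Hbegf were at their lowest bursal level in library 1, and Egfr had no call without library 1 or against tendon fibroblasts 2 alone. Of 13 genes tested in the wider list with fibroblast and platelet-derived growth factors, these 3 were higher and Spry1, Fgf2, Pdgfrl and Pdgfrb lower. Fgf2 and Pdgfrl were not called against tendon fibroblasts 2 alone, nor Pdgfrb under DESeq2, without library 1 or against tendon fibroblasts 1 alone. Pdgfra, a broad fibroblast marker, overlapped (401, 947 and 271 CPM against 314, 274 and 321).

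Surface receptors for matrix changed by chain. Itga6, Itgb8 (123, 69.7 and 114 CPM against 14.9, 13.1 and 18, 2.73 ± 0.37, adjusted p = 0.00058) and the heparan sulfate proteoglycan Sdc2 (2173, 1315 and 2136 against 284, 134 and 239, 3.04 ± 0.32, adjusted p = 9.6e-05) were higher. The collagen-binding chains Itga1, Itga2, Itga10 and Itga11 were all lower. Itgbl1, an integrin-like gene and not one of these chains, was also lower (106-fold, exact 95% interval 29.1 to 873). Itga2 had 0 bursal UMIs, and Itga10 lost its call without library 1. The common partner chain Itgb1 read 641, 857 and 855 CPM against 617, 451 and 568, with no call. Of 11 junction genes tested 3 were lower and none higher, beside 7.23% and 3.77% over all genes. The cadherin Cdh13 overlapped at 293, 927 and 648 and 326, 229 and 375 CPM.

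Complement and clotting genes had more falls than rises, as did all genes tested (7.23% lower and 3.77% higher). C3 had 1 bursal UMI against 565, 169 and 285 CPM (288-fold, exact 95% interval 51.6 to 11397). Clu, clusterin, stood at 25.4, 49.8 and 21.4 CPM against 6370.2, 7395 and 9538 (-8.00 ± 0.52), a tendon level carried by tendon fibroblasts 1, and it was not called against tendon fibroblasts 2 alone (adjusted p = 0.077). With Cd55 the only rise, 4 of 10 complement genes were lower, and with F13a1 the only rise, 5 of 13 clotting genes were lower, Plat, Gas6, Serpine2, F2r and F3. Of 16 cytokine and chemokine genes 4 were lower and none higher. Cxcl12 did not pass against the pool (658, 49.8 and 228 CPM against 559, 179.8 and 648), stood far above tendon fibroblasts 1 (9.55, 2.7 and 18.9 CPM, log2 fold change 4.82, adjusted p = 2.3e-05) and did not pass against tendon fibroblasts 2 (1002, 332 and 1989.7 CPM).

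Genes of loose-tissue fibroblasts were also lower more often than higher, beside 7.23% lower and 3.77% higher over all genes. Of 15 tested 8 were lower and only Sema3c, a guidance cue, was higher (411, 847 and 926 CPM against 213, 225 and 357, 1.32 ± 0.30, adjusted p = 0.013), a call lost without library 3 or library 4. Thy1 had 0 bursal UMIs. Gsn, gelsolin, overlapped at 5360.5, 6327 and 6615 CPM and 8889, 5989.7 and 6010.4, as did Ly6a at 673, 608 and 1082 and 705, 478 and 416. Among lipid carriers Apod had 3 bursal UMIs against 763, 1546 and 1345 CPM in tendon fibroblasts 2 (175-fold lower than the pool, exact 95% interval 60 to 852).

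Of 44 transcription factors tested 15 were lower and 3 higher, beside 7.23% lower and 3.77% higher over all genes. The rises were Sox5, Creb5, a cAMP response element binding factor (788, 917 and 477 CPM against 262, 154 and 324, 1.51 ± 0.38, adjusted p = 0.026), and Ebf1 (594, 847 and 434 against 438, 193 and 185, 1.17 ± 0.33, adjusted p = 0.044). The call of Creb5 was lost without library 1 or library 3, and both calls against tendon fibroblasts 2 alone. That of Ebf1, whose groups overlapped, was also lost without any one of the 3 libraries and under DESeq2. The falls included Prrx2 (0 bursal UMIs), Nr4a2 (3), Scx, Mkx, Sox9, Twist1, Meox2 and Prrx1.

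**Figure D4:**
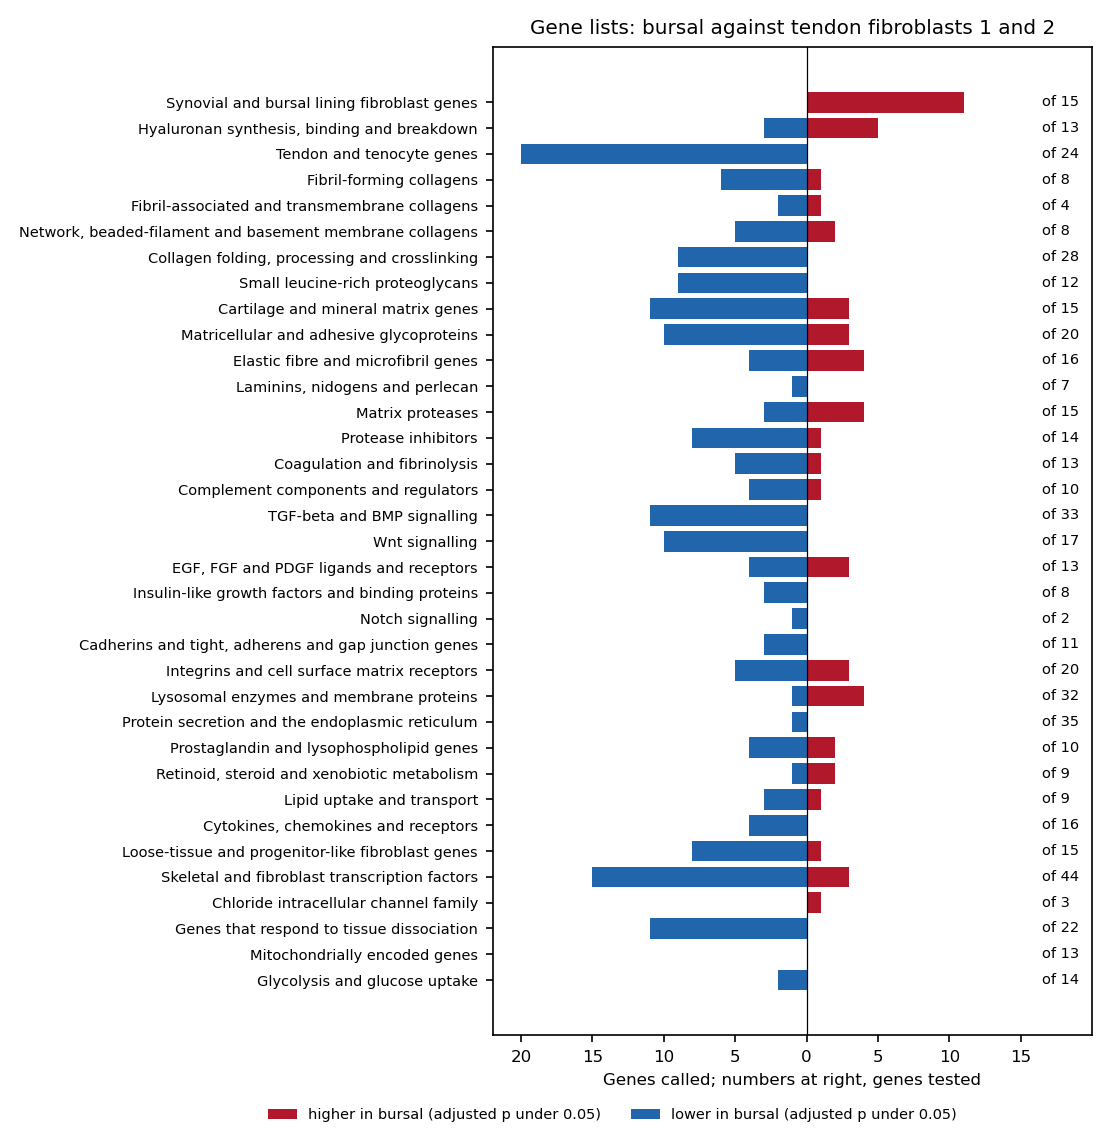
Number of genes called in each list, higher in bursal to the right (red) and lower to the left (blue), with the number tested at the right edge. All lists were chosen with earlier results of these data known. The lining list is the only one of 10 or more tested genes with rises alone. Tendon, proteoglycan, Wnt, TGF-beta and collagen-processing genes show falls alone.

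Against each tendon population by itself, 776 of 5186 genes passed for tendon fibroblasts 1 (15%), 310 higher (5.98%) and 466 lower (8.99%), and 342 of 4960 for tendon fibroblasts 2 (6.9%), 121 higher (2.44%) and 221 lower (4.46%). These comparisons share the bursal sums, and the difference between them was not tested. Prg4 was higher by 4.15 ± 0.38 against tendon fibroblasts 1 (6653, 6983 and 5173 CPM) and by 4.85 ± 0.71 against tendon fibroblasts 2 (3411, 3296 and 7097 CPM). Clic5 read 11.1, 2.7 and 0 CPM in tendon fibroblasts 1 and 20.5, 24.4 and 105 in tendon fibroblasts 2. Col22a1 read 1.59, 0 and 0 CPM against 7.68, 8.14 and 48.3, and Fn1 4597, 2864 and 5705 against 7145, 1795 and 9997. The marker levels in tendon fibroblasts 2 rest on few cells. In library 4 all UMIs of Clic5 and of Col22a1 came from 1 of 9 cells. In library 3 all Col22a1 UMIs came from 1 of 78 cells, which also held 2920 CPM of Clic5. Without library 1 the counts were 330 genes for tendon fibroblasts 1 and 149 for tendon fibroblasts 2.

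Bursal cells of library 1 differed from those of libraries 3 and 4 in a few genes, named after their values were seen. With 5 CPM added, 15 genes differed at least 8-fold between library 1 and both other libraries with 100 CPM or more on the higher side, 11 higher in library 1 and 4 lower, among 1949 genes that reached this level in a bursal sum. By the same rule 5 of 1600 genes differed among the tendon sums, 4 higher and 1 lower. Sums of 5 cells carry a large counting and sampling error, and 1 library against 2 permits no test. Of the 11 genes, 4 encode hemoglobin: 1 bursal cell of library 1 held 15.7% hemoglobin UMIs and no other bursal cell more than 0.0381%, and without that cell 628 of 5724 genes passed.

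The remaining genes higher in library 1 were Lum, Pi15, Ednrb, Mgp, Apoe, Lmo2 and Slpi. The proteoglycan Lum stood at 372, 0 and 7.12 CPM in the bursal sums, with UMIs in 17 of 30, 0 of 5 and 1 of 5 cells, against 364, 468 and 134 CPM in tendon. Mgp, an inhibitor of mineralisation, stood at 964, 19.9 and 92.6 CPM against 1336, 1841 and 1244 in tendon, and its call was lost without the library block, without library 4, under DESeq2 and against tendon fibroblasts 2 alone. Slpi, a protease inhibitor, read 370.3 CPM in library 1 and is listed at 0 in every cell of libraries 3 and 4, of any population. Whether genes were filtered per library before deposit is not given in the sources used here, so these zeros may not be measurements. Type I collagen did not meet this rule, with bursal sums of 4679, 3577 and 762 CPM for Col1a1 and 3793, 2601 and 1004 for Col1a2, although the median bursal cell held 4193, 318 and 151 CPM of Col1a1 in libraries 1, 3 and 4.

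Fosb, Rgs5, Rcan1 and the transcript AC160336.1 were lower in library 1. Rgs5, best known as a pericyte gene, stood at 0, 1026 and 812 CPM in bursal sums, from 4 of 5 cells in library 3 and 2 of 5 in library 4, against 2.84, 6.87 and 28.3 in tendon. It passed the test (5.16 ± 0.91, adjusted p = 0.0033), but the groups overlapped, DESeq2 gave an adjusted p of 0.31, and its fold was 3.59 without library 3. Fosb, an immediate early gene, stood at 10.1, 379 and 484 CPM in bursal sums and 485, 414 and 280.2 CPM in tendon.

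**Figure D5:**
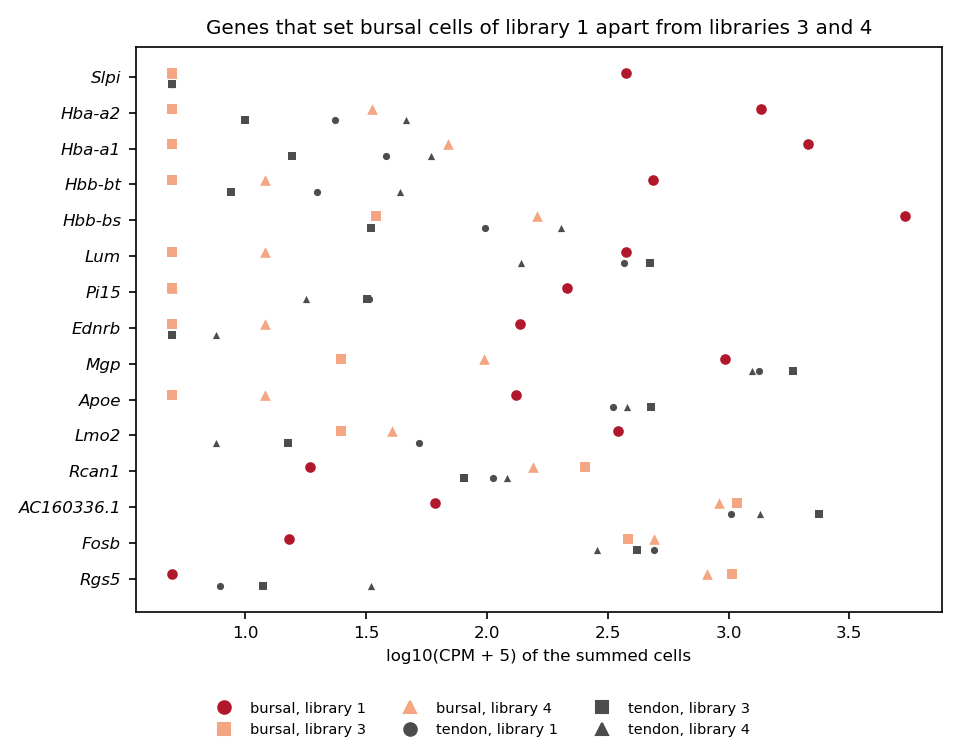
Levels of the 15 genes that set bursal cells of library 1 apart, as log10 of CPM plus 5 of the summed cells, with bursal sums in red shades above and tendon sums in grey below each line. Hemoglobin genes, Lum, Mgp and Slpi are high in library 1, and Rgs5 and Fosb are high in libraries 3 and 4.

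Genes that respond to tissue dissociation were lower in bursal fibroblasts in 11 of 22 tested and higher in none. Over all genes tested 7.23% were lower and 3.77% higher. The summed level of the dissociation genes was 2523, 7832 and 6117 CPM in bursal cells against 10700.3, 10365 and 7355 CPM in tendon. Fos stood at 42.3, 897 and 114 CPM against 1486, 1404 and 802 (-2.89 ± 0.67, adjusted p = 0.016), and its call was lost without library 1, without the library block and against tendon fibroblasts 2 alone, with a fold of -4.05 without library 3. The part of the dissociation genes in the other differences was not tested. Of 13 mitochondrially encoded genes none was called, beside 11% over all genes, too few genes to set apart. Their summed level was 43408, 43004 and 52552 CPM against 37729, 43253 and 47539.

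Markers of other cell types were found at low levels in most bursal sums. Rgs5, S100b and red cell genes stood higher in some sums. The part of these markers in the results was not tested. Over 10 endothelial genes the summed level was 8.45, 39.9 and 49.8 CPM against 33.4, 22.5 and 38.6 in tendon, with 3 genes at 0 bursal UMIs including Tie1. Over 12 macrophage genes it was 8.45, 49.8 and 7.12 CPM against 24.1, 14.98 and 15.4, with 9 at 0, among them Ptprc, Csf1r and Adgre1. Of 7 muscle genes 6 had 0 bursal UMIs, with a sum of 1.69, 0 and 0 CPM against 9.93, 8.74 and 7.71, and both mesothelial genes in the table had 0 on either side. Red cell genes summed to 9372, 29.9 and 256 CPM against 161, 48.1 and 334, with the first value from the cell rich in hemoglobin. Over 10 nerve genes the sum was 219.8, 139 and 99.7 CPM against 74.5, 51.2 and 87.4, mostly from S100b, which was higher than in tendon (206, 119.6 and 85.5 CPM against 24.1, 6.87 and 41.1, 2.74 ± 0.49, adjusted p = 0.0034) while the Schwann genes Mag and Pmp2 had 0 UMIs. Its call was lost without library 1, and its fold was 3.41 without library 4. Over 10 mural genes the sum was 76.1, 1086 and 890.1 CPM against 73.1, 93.0 and 84.8, mostly Rgs5 in libraries 3 and 4. In library 1, where Rgs5 had 0 bursal UMIs, the sum came from other mural genes. Of the 10 genes 2 had 0 bursal UMIs, Kcnj8 and Abcc9, and Acta2 had 2 UMIs. Over 8 proliferation genes the sum was 32.1, 79.7 and 64.1 CPM against 61.7, 64.3 and 64.3, and Mki67 and Top2a had 0 bursal UMIs.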

How the data were processed

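UMI counts per gene and cell were deposited by the authors for 4 libraries, with a library and a population name for each cell, and were used as deposited. The submitters' processing notes name Cell Ranger, Seurat 2.3.4, R 3.5.2 and the mm10 build, without their roles, and cell filters are not given in the sources used here. The deposited natural log values and the deposited counts of UMIs and genes per cell entered none of the results. Depth was taken from the UMI counts themselves. The shallowest cell holds 1010 UMIs. Of 15750 gene entries, 4 under repeated names (0.0186% of UMIs) were left out. No doublet caller was run, and an alternative left out 4 tendon cells of more than 3 times their median depth.

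Counts were summed per population and library with at least 5 cells on each side, which left out library 2. Bursal sums were set against tendon sums with edgeR 4.0.16 (R 4.3.3): filterByExpr, TMM, the quasi-likelihood test with the library as a block, and Benjamini-Hochberg adjustment with a threshold of 0.05. Both sums of a library come from the same library, and their deviations correlated at 0.132, 0.106 and 0.12 in libraries 1, 3 and 4. Counts were also simulated for 5814 genes of this comparison, with a fixed dispersion of 0.1 for every gene and no library effect. Of 200 genes changed by 2 on the log2 scale, 64.5% were recovered, with 0 of wrong sign and 3 unchanged genes called. The dispersion was not estimated from the data, so these rates need not hold for them.

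A gene with 0 bursal UMIs is given as a bound from a floor of 3 counts over the group, and one with 1 to 3 as the ratio of CPM with an exact 95% interval. Intervals and floors cover counting error only. Shares of cells with a UMI were compared after thinning to 3000 UMIs per cell, which left out 3 bursal, 19 tendon fibroblasts 1 and 12 tendon fibroblasts 2 cells as too shallow. Named genes are the 3 markers, the 15 largest rises and falls that passed, had the same direction in all 3 libraries and a mean of 100 CPM or more on the higher side, and from each gene list the 4 called genes changed most in each direction, the 3 most abundant, and every member of a list of up to 12. Other genes, and the genes that set library 1 apart, were picked after their values were seen. The members, gene lists and tests were chosen with earlier results of these data known. Promoters come from RefSeq, and 4610 of the 5834 genes tested had a window. DESeq2 1.42.0, other filters, scalings, tendon sides and cell selections, and leaving out each library, were alternatives. Those that left out the cell rich in hemoglobin or the bursal cells without Col22a1 were added after seeing the data. Results for a few listed genes are not reported here.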

Additional observations from a re-analysis of the deposited data

Results flagged for a closer look

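The number of bursal cells stood apart in library 1, with 30 cells against 0, 5 and 5 in libraries 2, 3 and 4. Library 1 also holds the most cells, and the share of its cells that are bursal was 5.17%, against 1.95% and 4.59% in libraries 3 and 4, without standing apart by the same measure.

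The level of Col22a1 in tendon fibroblasts 1 stood apart at 1.59 CPM in library 1, which is 1 UMI, with 0 in the other libraries. In tendon fibroblasts 2 it stood apart at 48.3 CPM in library 4, where 6 UMIs came from 1 of 9 cells, against 7.68, 0 and 8.14 CPM in libraries 1, 2 and 3. Chance alone sets about 1 in 20 groups of 4 normally distributed values apart by this measure. That rate does not hold for levels resting on few UMIs, as in tendon fibroblasts 1, where a lone UMI always stands apart.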

How the results depend on the processing

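The count of 642 genes became 1062 with no filter on low counts, 342 against tendon fibroblasts 2 alone and 212 of 1186 genes after thinning, which tests fewer genes. Among the listed genes 211 passed, 135 against tendon fibroblasts 2 alone and 118 after thinning. Leaving out each library gave 294 to 672 genes, 139 to 222 of the listed genes, 330 to 916 against tendon fibroblasts 1 and 149 to 412 against tendon fibroblasts 2, lowest each time without library 1. No replicate block gave 624. DESeq2 gave 441, of which 439 were also among the 642, and the remaining alternatives 606 to 776. Of 166 named genes that passed, 106 kept their call in every alternative that tested them and 0 changed direction, while of all 642 genes 3 had the opposite sign against tendon fibroblasts 1 alone and 3 against tendon fibroblasts 2 alone. Calls were lost for 37 without library 1, 28 against tendon fibroblasts 2 alone and 19 under DESeq2. Of genes that had not passed, Plpp3 (1.57) and Cxcl12 (4.82) had the opposite sign against tendon fibroblasts 1 alone. At full depth the share of tendon cells with a UMI was 92.8% for Prg4 and 6.29% for Clic5, against 87.8% and 2.78% thinned. The cause of these shifts was not tested. The 5 bursal cells in each of libraries 3 and 4 limit what low genes can show.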

Other observations

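Beyond the gene groups above, the most abundant bursal transcripts after Prg4 were Malat1, a nuclear RNA, at 51049 ± 5723 CPM (SD, n = 3) against 44482 ± 4895 in tendon, and Fn1. S100a6, a calcium-binding protein, stood at 8248 ± 3291 CPM against 5426 ± 1541, and Crip1, a zinc-binding LIM protein, at 6573 ± 2212 against 4253 ± 1627. The means of S100a6 differed by less than the SD of its bursal sums, and those of Crip1 by about that SD.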
